A study of Mus musculus with 54 samples.

Results

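Pdk4, Cpt1a, Acadvl, Acadl and Acadm, genes that serve the burning of fatty acids and the sparing of glucose, were followed through the mouse mammary cycle. They were chosen by name, with earlier results of these data known. Every probe set annotated to exactly 1 of these 5 symbols was taken, which gave 6 of the 12488 probe sets and 5 of the 8251 singly named genes of the array. Of these probe sets, 4 were bright enough to be tested, 1 each for Pdk4, Cpt1a, Acadl and Acadm. Both Acadvl probe sets were too dim.

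Each of 54 1-channel Affymetrix arrays carried RNA from 1 inguinal gland of 1 mouse, with the lymph node taken out. There were 18 time points, with 3 mice for each. Virgin glands were taken at 6, 10 and 12 weeks of age, and pregnant ones on days 1, 2, 3, 8.5, 12.5, 14.5 and 17.5 after mating at 12 weeks, with the plug seen on day 0.5. Nursing glands followed at 1, 3 and 7 days, and regressing ones 1, 2, 3, 4 and 20 days after the pups had been removed, which was done after 7 days of nursing. No genetic change or drug is given in the labels for any group, and the sources used here do not give the strain. Letters A, B and C below name the 3 mice of a time point and were treated as names only, with no pairing between time points. Values are MAS5 signals on a linear scale, and differences are between means of log2 signals, with signals under 9.4 set to 9.4. A change was called at an adjusted p under 0.05 in 1 limma fit of 8640 probe sets, and n is 3 mice per time point throughout. The whole gland was used, so fewer cells of a type and less RNA per cell cannot be told apart.

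Fatty acids are burned in mitochondria. CPT1A, on the outer mitochondrial membrane, couples long-chain fatty acids to carnitine and is the gate to this route, and malonyl-CoA, the building block of fatty acid synthesis, blocks it. Inside, the acyl-CoA dehydrogenases ACADVL, ACADL and ACADM take the first step of each round of beta-oxidation on very long, long and medium chains. PDK4 phosphorylates and shuts the pyruvate dehydrogenase complex, so that glucose carbon is kept out of the citric acid cycle while fat is burned. In other tissues Pdk4 and Cpt1a are known to rise in fasting through PPAR, glucocorticoid and FOXO signals. The lactating gland instead makes part of its milk fat from glucose, and on weaning that synthesis falls.

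All 4 measured genes were at their lowest in lactation and rose within 1 day of pup removal, but by very different amounts. At lactation day 7, Cpt1a was 15.5-fold, Acadl 7.64-fold, Acadm 5.18-fold and Pdk4 4.87-fold lower than at virgin week 12. From lactation day 7 to involution day 1, Pdk4 rose 28.8-fold, Cpt1a 18.4-fold, Acadl 4.94-fold and Acadm 1.88-fold. Both Cpt1a folds rest on dim lactation signals, as 2 of the 3 mice of day 7 lay under 22.8, the level used to filter probe sets. Without mouse A, the third, the log2 differences went from -3.95 to -4.59 and from 4.20 to 4.83. Leaving out each array in turn, they ran from -4.59 to -3.49 and from 3.74 to 4.83. Pdk4 (24.6 to 52.5) and Acadl (25.9 to 44.3) also lay close above 22.8 at lactation day 7, while Acadm lay at 230.1 to 291.4. With its rise Pdk4 reached its highest mean of the whole series during involution. Cpt1a came back into the range of its pregnancy values, and Acadm stayed below every virgin mouse through day 4. The plot of signals by time point shows these 4 courses.

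**Figure D1:**
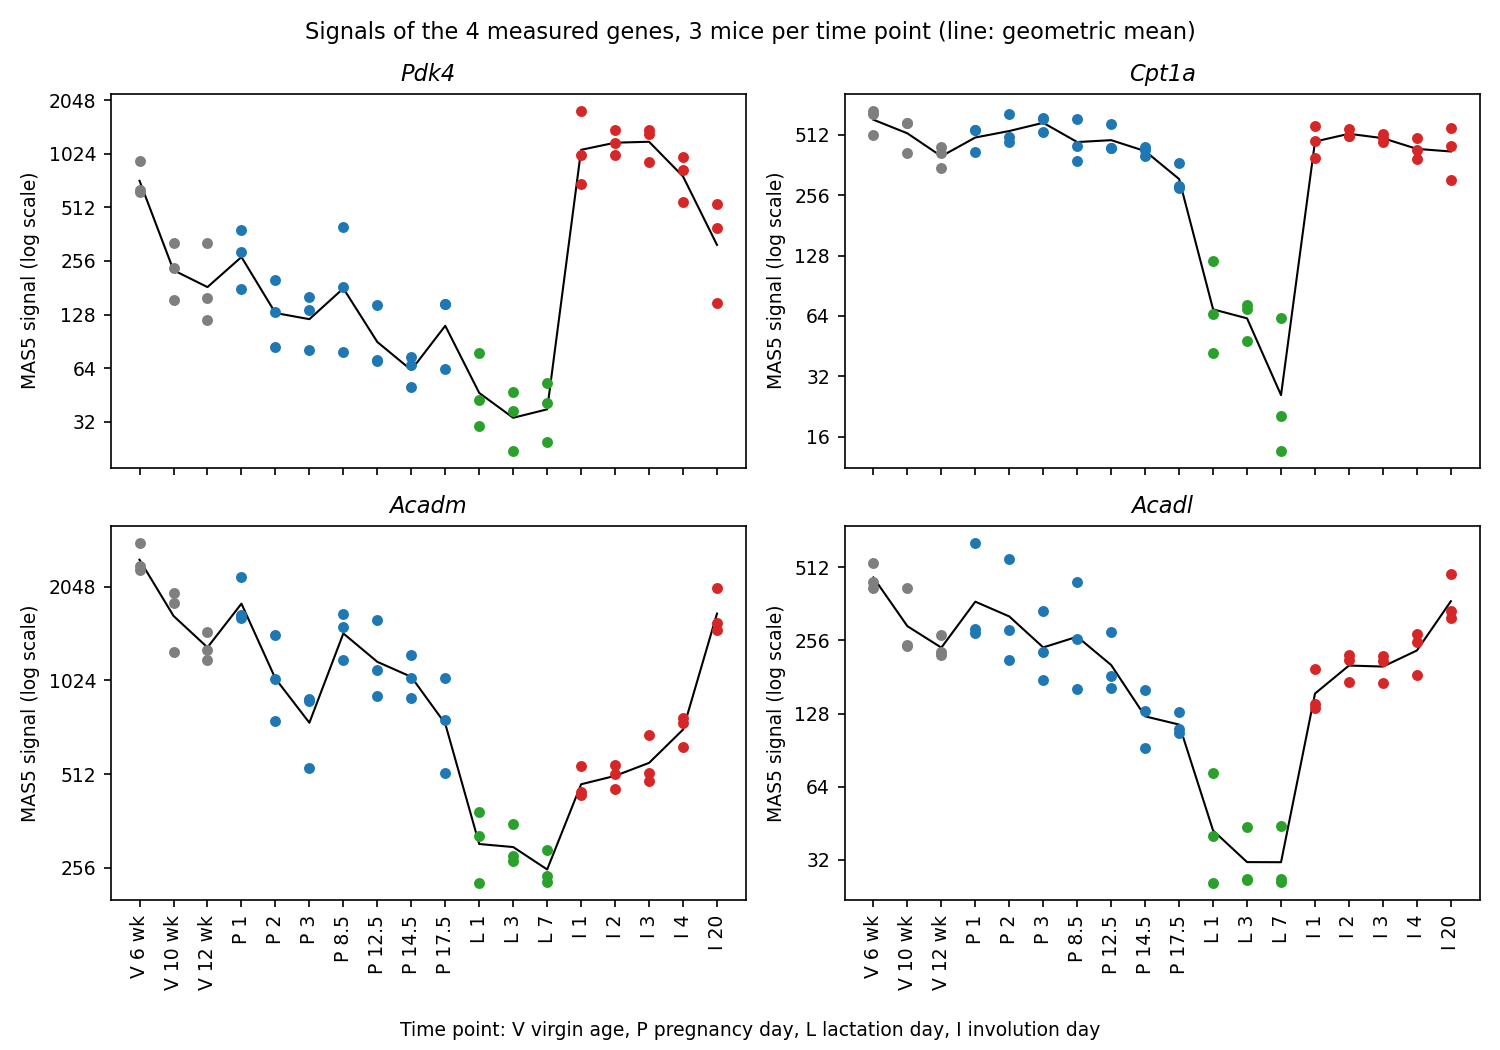
MAS5 signal on a log axis at the 18 time points for Pdk4, Cpt1a, Acadm and Acadl; each point is 1 mouse, coloured by stage, and the line joins the geometric means of the 3 mice. In all 4 panels the lactation points are the lowest means, and Pdk4 at involution day 1 runs from 690.8 to 1795.3 against 24.6 to 52.5 at lactation day 7.

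The 250 bases before the transcription start of each gene are printed because the measured genes were all low in lactation and all higher after weaning. They come from RefSeq, build GRCm38.p6, where all 5 symbols matched, and run 5′ to 3′ on the gene's own strand, ending at the base before the start. Capitals mark every match to 5 short motifs, searched on both strands: the nuclear receptor half-site AGGTCA, the FOXO core TGTTTAC, the glucocorticoid receptor half-site TGTTCT, the CCAAT box and the TATA box TATAAA.
Pdk4 promoter, chr6:5496279-5496528, minus strand: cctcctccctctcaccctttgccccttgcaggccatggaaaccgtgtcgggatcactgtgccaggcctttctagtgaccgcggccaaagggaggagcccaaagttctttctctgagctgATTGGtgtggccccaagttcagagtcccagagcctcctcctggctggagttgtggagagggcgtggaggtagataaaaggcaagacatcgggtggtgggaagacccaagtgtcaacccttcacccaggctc
Cpt1a promoter, chr19:3323051-3323300, plus strand: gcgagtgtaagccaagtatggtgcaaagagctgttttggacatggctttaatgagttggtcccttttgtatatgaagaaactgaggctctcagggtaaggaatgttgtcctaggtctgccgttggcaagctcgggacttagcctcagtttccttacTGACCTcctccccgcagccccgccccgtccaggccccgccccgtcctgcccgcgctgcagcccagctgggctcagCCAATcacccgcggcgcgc
Acadvl promoter, chr11:70015429-70015678, minus strand: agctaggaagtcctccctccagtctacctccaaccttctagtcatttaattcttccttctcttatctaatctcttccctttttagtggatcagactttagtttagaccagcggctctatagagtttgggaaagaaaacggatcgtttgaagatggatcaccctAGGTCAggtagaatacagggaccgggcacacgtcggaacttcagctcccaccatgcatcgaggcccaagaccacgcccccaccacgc
Acadl promoter, chr1:66863310-66863559, minus strand: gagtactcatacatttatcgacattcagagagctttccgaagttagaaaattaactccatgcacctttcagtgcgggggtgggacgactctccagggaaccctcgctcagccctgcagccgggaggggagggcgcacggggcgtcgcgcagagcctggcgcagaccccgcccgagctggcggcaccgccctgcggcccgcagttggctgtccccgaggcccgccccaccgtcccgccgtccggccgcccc
Acadm promoter, chr3:153944644-153944893, minus strand: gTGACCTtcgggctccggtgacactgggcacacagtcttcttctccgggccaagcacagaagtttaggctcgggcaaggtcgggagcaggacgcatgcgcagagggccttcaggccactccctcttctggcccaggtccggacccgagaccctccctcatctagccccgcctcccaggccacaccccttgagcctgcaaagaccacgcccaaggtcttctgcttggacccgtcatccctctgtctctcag

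AGGTCA on either strand was found in 3 of the 5 windows. It lay 249 bases before the start of Acadm and 94 bases before that of Cpt1a, both times as TGACCT, and 87 bases before that of Acadvl. The CCAAT box was found in Pdk4, as ATTGG 131 bases before the start, and in Cpt1a, 19 bases before it. The FOXO core, the glucocorticoid half-site and TATAAA had no match in any of the 5 windows, and the Acadl window held none of the motifs. Among 32851 RefSeq promoters, windows of the same length held AGGTCA in 14.0%, TGTTTAC in 3.17%, TGTTCT in 16.1%, CCAAT in 33.8% and TATAAA in 12.4% of cases. A match describes letters in this window and was not tied to any measurement here. The windows were richer in G and C than the promoter median of 52.4% for Acadl (68.0%), Acadm (64.0%), Cpt1a (59.6%) and Pdk4 (58.8%), and below it for Acadvl (49.6%). The genes lie apart in the genome: Acadl on chromosome 1 (66830839 to 66863309), Acadm on 3 (153922353 to 153944643), Pdk4 on 6 (5483351 to 5496278), Acadvl on 11 (70010183 to 70015428) and Cpt1a on 19 (3322326 to 3385735). For Cpt1a the whole window lies inside the annotated span of the gene, because the start used in the promoter table is not the outermost one.

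Pdk4 encodes a pyruvate dehydrogenase kinase. In virgin glands of 6 weeks its signal was 932.1, 628.4 and 644.7 in mice A, B and C. At 12 weeks it was 158.8, 118.6 and 323.3. The groups did not overlap, and Pdk4 fell by 1.98 ± 0.48 (SE) on the log2 scale, 3.96-fold, with an adjusted p of 0.0024. The intermediate age of 10 weeks gave 234.9, 322.1 and 154.8, within the range of week 12.

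During pregnancy Pdk4 spread widely between mice. It was 286.1, 178.3 and 383.8 on day 1, and 200.4, 132.3 and 83.9 on day 2. It was 160.5, 80.9 and 134.9 on day 3, and 183.2, 79.0 and 400.0 on day 8.5. Day 8.5 had the widest spread of the gene, with an SD of 1.17 in log2. It was 70.0, 71.0 and 145.3 on day 12.5, then 50.0, 66.2 and 73.4 on day 14.5, and 146.0, 63.5 and 146.2 on day 17.5. The mice of day 14.5 all lay below the 3 mice of virgin week 12. That difference, a fall of 1.55 ± 0.48 (SE) or 2.93-fold, had an adjusted p of 0.019, but it rests on few animals. Without mouse C of virgin week 12 it was -1.14 with an adjusted p of 0.14, without mouse A of day 14.5 it was -1.39 with 0.083, and without mouse B of day 14.5 it was -1.59 with 0.05. With median scaling it was -1.36, with an adjusted p of 0.053.

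In lactation Pdk4 was near the bottom of its range. The 3 mice gave 77.9, 42.1 and 30.4 on day 1, then 36.8, 21.9 and 47.2 on day 3, and 40.9, 24.6 and 52.5 on day 7. Day 1 overlapped with pregnancy day 17.5, and the difference of -1.26 ± 0.48 (SE) had an adjusted p of 0.051. It passed the threshold in 7 of 17 other settings, so the step at birth was not settled for this gene. Day 7 lay below virgin week 12 in all 3 mice, by 2.28 ± 0.48 (SE), with an adjusted p of 0.0001.

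One day after pup removal Pdk4 was 1795.3, 690.8 and 1013.9, so the lowest of these mice stood above the highest mouse of lactation day 7. The rise was 4.85 ± 0.48 (SE) on the log2 scale, with an adjusted p of 1.1e-10. The signal then stayed high, at 1401.8, 1174.6 and 1007.3 on day 2, and at 924.7, 1395.6 and 1333.1 on day 3. On day 4 it was 551.2, 979.1 and 829.3, and the change from day 1, -0.50 ± 0.48 (SE), was not called (adjusted p = 0.49). By day 20 it was 535.5, 391.5 and 149.4, which overlapped with virgin week 12 (0.79 ± 0.48, adjusted p = 0.42). In the order of the 18 means of Pdk4, involution days 3, 2, 1 and 4 came first and virgin week 6 followed. The only neighbours in that order whose mice did not overlap were virgin week 6 and involution day 20, the fifth and the sixth.

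Cpt1a encodes the liver-type carnitine palmitoyltransferase of the outer mitochondrial membrane. Its signal kept to a narrow range over the virgin ages and most of pregnancy. The 3 mice gave 653.1, 511.2 and 676.7 at week 6, then 583.5, 584.1 and 414.5 at week 10, and 348.3, 444.6 and 414.2 at week 12. Week 12 lay below week 6 in all mice, but the difference of -0.61 ± 0.31 (SE) was not called (adjusted p = 0.13). It was called with the spread taken from these 6 arrays alone (adjusted p = 0.022) and with array quality weights (0.038). From pregnancy day 1 to day 12.5 the 15 mice lay between 379.2 and 648.6. On day 14.5 they gave 400.6, 444.0 and 430.7, which overlapped with virgin week 12 (0.09 ± 0.31, adjusted p = 0.88). Day 17.5 gave 284.5, 277.3 and 370.8.

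At birth Cpt1a dropped. Lactation day 1 gave 120.7, 41.8 and 65.3, below every mouse of pregnancy day 17.5. The fall was 2.16 ± 0.31 (SE) on the log2 scale, 4.46-fold, with an adjusted p of 1.7e-06. Day 3 gave 69.1, 48.3 and 72.4, and day 7 gave 62.3, 20.3 and 13.6. Mouse A of day 7 lay within the range of day 1 while mice B and C lay under it. From day 1 to day 7 Cpt1a fell by 1.42 ± 0.31 (SE), which had an adjusted p of 0.0025. This call was lost without mouse A of day 1 (-1.02, adjusted p = 0.075), without mouse C of day 7 (-0.96, adjusted p = 0.076) and with the spread taken from these 6 arrays alone (adjusted p = 0.35), and without mouse A of day 7 the difference was -2.06. Against virgin week 12, day 7 was lower by 3.95 ± 0.31 (SE), with an adjusted p of 2.9e-14. No other tested gene of the group fell as far in this comparison.

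After weaning Cpt1a came back in 1 day. Involution day 1 gave 566.0, 479.1 and 392.5, against a highest mouse of 62.3 on lactation day 7. The rise was 4.20 ± 0.31 (SE), with an adjusted p of 2.3e-14. It then gave 502.9, 504.8 and 547.9 on day 2, then 514.1, 492.0 and 472.5 on day 3, and 389.1, 432.0 and 491.7 on day 4. Day 20 gave 551.2, 304.9 and 449.9. Neither day 4 against day 1 (-0.12 ± 0.31, adjusted p = 0.82) nor day 20 against virgin week 12 (0.08 ± 0.31, adjusted p = 0.93) was called. In the order of means, 15 time points of virgin, pregnant and involuting glands ran from 8.27 to 9.25 in log2 with every neighbouring pair overlapping. A single step of 2.16 then separated pregnancy day 17.5 from lactation day 1.

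Acadvl, the very-long-chain enzyme of the inner mitochondrial membrane, gave no usable signal. One probe set was under 9.4 on 51 of 54 arrays, with a highest value of 17.5. The other was under 9.4 on 53 of 54 arrays, with a highest value of 9.7. Median signals of 2.2 on both say only that these probes were dim in this tissue, and no level or change of Acadvl can be given.

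Acadl encodes the long-chain enzyme of the mitochondrial matrix. It gave 533.7, 445.6 and 421.7 at virgin week 6, then 245.7, 422.0 and 242.1 at week 10, and 228.2, 221.9 and 269.5 at week 12. Week 12 lay below week 6 in all mice, by 0.96 ± 0.35 (SE), with an adjusted p of 0.035. That call was lost without any 1 of mice A, B and C of week 6 or A and B of week 12, with adjusted p from 0.058 to 0.12. It was also lost with quantile normalization (adjusted p = 0.061) and with no filter (0.055). Early pregnancy was uneven between mice, with 274.5, 285.0 and 643.9 on day 1 and 555.9, 211.6 and 281.4 on day 2. It was 338.9, 229.9 and 176.1 on day 3, and 258.6, 161.5 and 445.5 on day 8.5. One mouse stood apart above the others on days 1 and 2, while the mice of day 8.5 were spread about evenly on the log2 scale.

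In the second part of pregnancy Acadl was 183.5, 163.1 and 277.9 on day 12.5, then 92.6, 131.0 and 159.4 on day 14.5, and 106.6, 110.6 and 129.9 on day 17.5. Day 14.5 lay below virgin week 12 in all mice, but the difference of -0.94 ± 0.35 (SE) just missed the threshold (adjusted p = 0.055). It was called without mouse C of day 14.5 (-1.12, adjusted p = 0.049) and in 4 other settings, with adjusted p from 0.0039 to 0.044. Lactation day 1 gave 73.0, 25.6 and 40.3, lower than day 17.5 by 1.45 ± 0.35 (SE), with an adjusted p of 0.0021. With the spread taken from these 6 arrays alone the adjusted p was 0.064. Day 3 gave 43.6, 26.4 and 26.7, and day 7 gave 44.3, 25.9 and 26.7. These stages overlapped, and day 7 against day 1 (-0.43 ± 0.35) was not called (adjusted p = 0.56). Day 7 was below virgin week 12 by 2.93 ± 0.35 (SE), with an adjusted p of 2.9e-09.

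On involution day 1 Acadl gave 195.1, 135.0 and 140.4, all above the 3 mice of lactation day 7. The rise was 2.31 ± 0.35 (SE), with an adjusted p of 1.8e-06. It was 222.4, 173.1 and 213.0 on day 2, then 221.1, 210.8 and 170.9 on day 3, and 184.1, 251.2 and 272.1 on day 4. Days 1 and 4 overlapped (0.59 ± 0.35, adjusted p = 0.23). Day 20 gave 478.8, 315.1 and 338.0, above all mice of virgin week 12, yet the difference of 0.63 ± 0.35 (SE) was not called (adjusted p = 0.36). In the order of means only pregnancy day 17.5 and lactation day 1 were neighbours without overlap.

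Acadm encodes the medium-chain enzyme, which acts on the shorter chains left after the long-chain rounds. Its 3 mice gave 2833.3, 2383.8 and 2320.8 at virgin week 6, then 1814.8, 1960.9 and 1265.3 at week 10, and 1192.1, 1460.5 and 1284.1 at week 12. Every mouse of week 6 lay above every mouse of both later ages. The fall to week 12, by 0.94 ± 0.23 (SE) or 1.91-fold, had an adjusted p of 0.0034. Pregnancy started at 1624.8, 1656.4 and 2196.1 on day 1. It gave 1428.3, 1032.0 and 759.1 on day 2 and 890.7, 880.1 and 535.1 on day 3. On day 8.5 it was 1524.8, 1193.9 and 1675.4, so each mouse of day 8.5 stood above each of day 3.

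Later Acadm gave 1107.1, 915.6 and 1601.5 on day 12.5, then 900.5, 1236.0 and 1044.3 on day 14.5, and 763.1, 1044.7 and 514.7 on day 17.5. Day 14.5 overlapped with virgin week 12 (-0.31 ± 0.23, adjusted p = 0.37). Lactation day 1 gave 322.8, 227.8 and 385.6, below every mouse of day 17.5. Acadm fell by 1.29 ± 0.23 (SE), 2.44-fold, which had an adjusted p of 8.1e-05. Lactation was then level, with 353.1, 268.8 and 279.2 on day 3 and 291.4, 230.1 and 240.3 on day 7 (day 7 against day 1: -0.27 ± 0.23, adjusted p = 0.59). Day 7 was below virgin week 12 by 2.37 ± 0.23 (SE), with an adjusted p of 2.6e-11.

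After weaning Acadm had the smallest change of the 4 genes. Involution day 1 gave 543.2, 448.1 and 439.3, all above the mice of lactation day 7. The rise was 0.91 ± 0.23 (SE), with an adjusted p of 0.003, and it was called in each of the 17 other settings. Day 2 gave 549.3, 457.7 and 512.6, day 3 gave 682.6, 517.6 and 486.6, and day 4 gave 746.2, 774.3 and 623.4. Day 4 lay above day 1 in all mice, but the difference of 0.58 ± 0.23 (SE) was not called (adjusted p = 0.065), though it was in 4 other settings, with adjusted p from 0.013 to 0.044. Day 20 gave 2025.3, 1492.6 and 1568.2, above the mice of virgin week 12, with a difference of 0.36 ± 0.23 (SE) that was not called (adjusted p = 0.46). In the order of means, involution days 4, 3, 2 and 1 came next above the 3 lactation points, where Pdk4 had its 4 highest means.

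Set side by side, the comparisons gave the following counts. Virgin week 12 was lower than week 6 in 3 of the 4 genes and higher in none, where 12.5% of all probe sets were called lower and 17.2% higher. All 3 calls were lost with the 3′ to 5′ ratio of the beta-actin control probe sets, a measure of RNA integrity, as a covariate: Pdk4 then differed by -1.21 (adjusted p = 0.12), Acadm by -0.62 (0.12) and Acadl by -0.45 (0.5). That ratio was 3.346 to 4.052 at week 6 and 1.433 to 2.354 at week 12, so it moved with age, and its part in the result was not tested further. Pregnancy day 14.5 was lower than virgin week 12 in 1 gene, Pdk4, and higher in none, with 8.85% of probe sets lower and 8.82% higher. Lactation day 1 was lower than pregnancy day 17.5 in 3 genes and higher in none, with 13.2% lower and 10.1% higher. Lactation day 7 was lower than day 1 in 1 gene, Cpt1a, and higher in none, with 2.88% lower and 2.41% higher.

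Against virgin week 12, lactation day 7 was lower in 4 of 4 genes, in a comparison where 27.2% of all probe sets were called lower and 24.3% higher. Their median difference was -2.65, against -0.01 for all probe sets. Involution day 1 was higher than lactation day 7 in 4 of 4 genes, with 14.1% of probe sets called higher and 11.3% lower, and the median difference was 3.25 against -0.02. In both comparisons each of the 4 genes was called in each of the 17 other settings. The genes were chosen with earlier results of these data known, so these counts and medians describe them and are no test against the array. Involution day 4 against day 1 gave no call among the 4 genes, with 13% of probe sets higher and 11.2% lower. Neither did involution day 20 against virgin week 12, with 1.27% higher and 1.37% lower. With no adjustment of limma's p, 1 of the 4 genes, Acadm, passed 0.05 from involution day 1 to day 4, and 0 did at day 20. The share of all probe sets passing 0.05 without adjustment was not counted, so these 2 counts cannot be set against the array. The F test over the 18 time points called all 4 genes, as it did 88.1% of probe sets. Several of these comparisons use the same arrays: virgin week 12 enters 4, lactation day 7 enters 3, and lactation day 1 and involution day 1 enter 2 each, so their values are not independent of each other. The plot of differences by comparison puts these values on 1 scale.

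**Figure D2:**
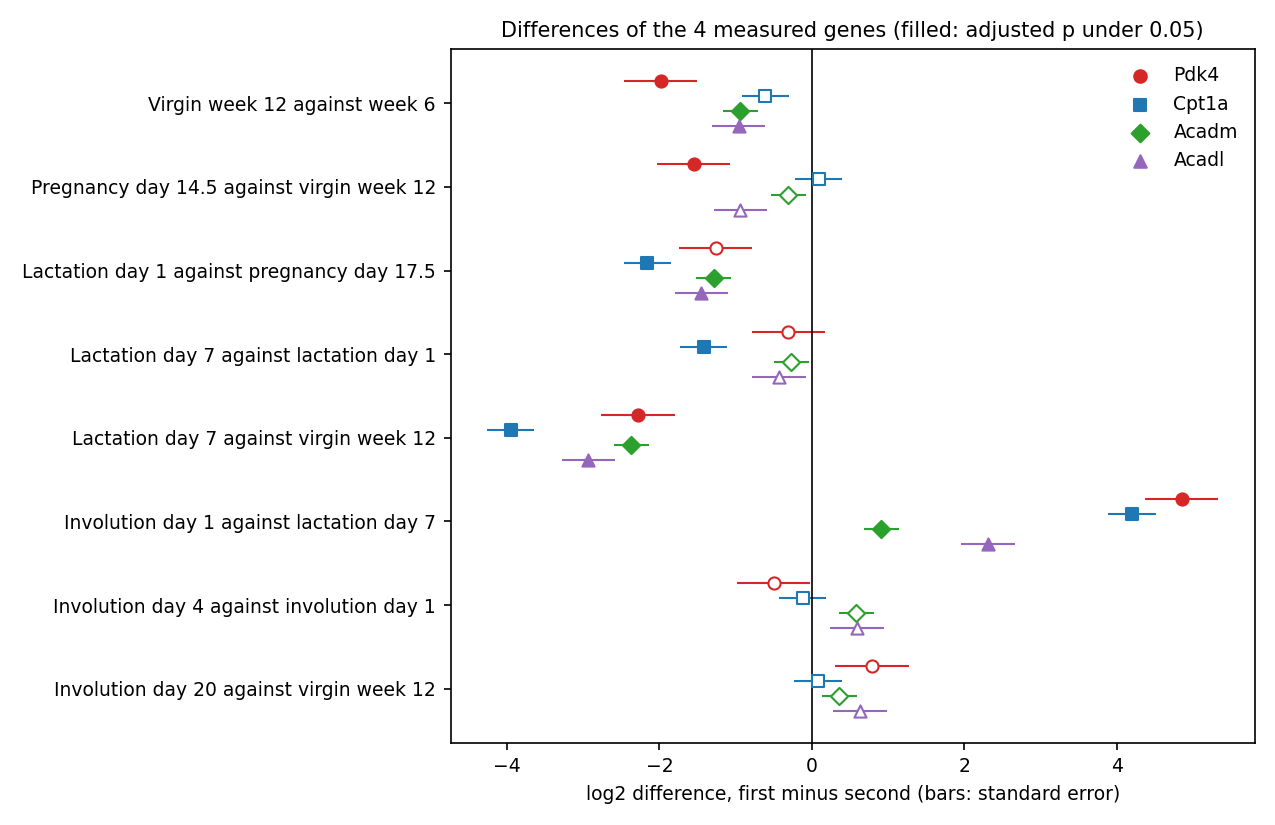
Difference between the mean log2 signals of the first and the second time point for each of 8 comparisons, with standard errors from the limma fit; symbols and colours mark the gene, and filled symbols have an adjusted p under 0.05. From lactation day 7 to involution day 1 the differences spread from 0.91 for Acadm to 4.85 for Pdk4. For lactation day 7 against virgin week 12 they lie between -3.95 and -2.28.

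The sizes of the weaning response were also set against each other within arrays, for 3 pairs of genes picked after their values were seen. From lactation day 7 to involution day 1 the log2 ratio of Pdk4 to Acadm rose by 3.94, with no overlap between the groups. That of Cpt1a to Acadm rose by 3.29 and that of Acadl to Acadm by 1.39, again without overlap. Because of how the pairs were picked, these values are a description with no test. The plot of Pdk4 and Cpt1a against Acadm sets the means of these genes against each other.

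**Figure D3:**
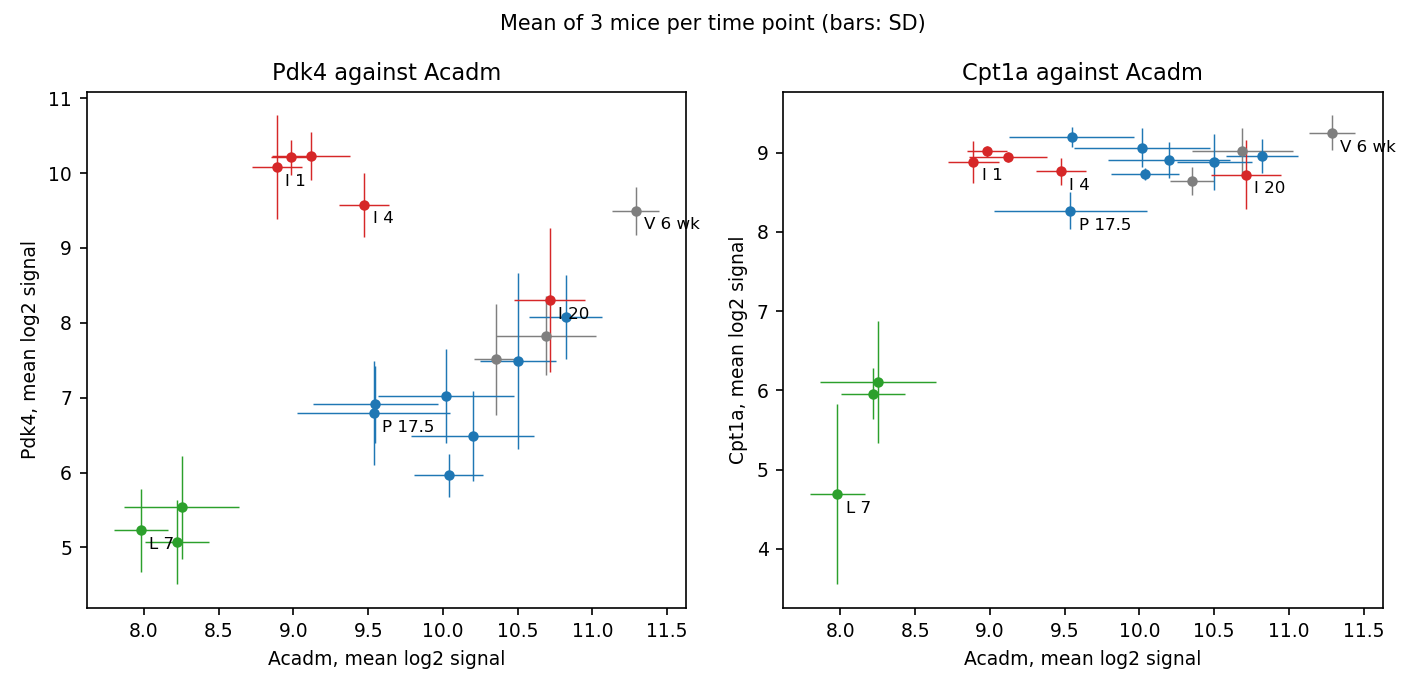
Mean log2 signal of Pdk4 (left) and Cpt1a (right) against that of Acadm at the 18 time points, with SDs over 3 mice; colours mark virgin (grey), pregnancy (blue), lactation (green) and involution (red), and 6 time points are labelled. Involution days 1 to 4 have Acadm means of 8.89 to 9.47, above the lactation means of 7.98 to 8.25. Their Pdk4 means of 9.58 to 10.23 are above the other means, but day 4 (9.58) overlaps with virgin week 6 (9.5).

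Over the 18 means, Acadl ran most closely with Cpt1a (r = 0.92) and with Acadm (r = 0.87). Cpt1a and Acadm had r = 0.74, Pdk4 and Cpt1a 0.66, and Pdk4 and Acadl 0.64. Pdk4 and Acadm had the weakest relation, r = 0.29. These values describe the same 18 time points, whose means share arrays, and carry no test. The highest mean exceeded the lowest 35.6-fold for Pdk4, 23.6-fold for Cpt1a, 14.8-fold for Acadl and 9.91-fold for Acadm. The pooled SD between mice of a time point was 0.63, 0.39, 0.45 and 0.30 in log2 for these genes in turn, so Pdk4 had both the largest range and the largest spread.

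The genes whose means ran most like each member were sought among all other tested genes. For Pdk4 they were Scarb2, a lysosomal membrane protein (r = 0.969), Rb1, the retinoblastoma cell cycle inhibitor (0.954, on a dim probe set), Basp1 (0.93), Ccng1, a p53 target cyclin (0.923), and Shisa5 (0.916). For Cpt1a they were Tmsb10 (0.977), Rab31 (0.962), Ifnar1, an interferon receptor chain (0.958), Tmsb4x (0.957) and Anxa1 (0.954). Tmsb10 and Tmsb4x encode thymosins, which bind actin monomers. For Acadm they were Ywhag (0.985), the peroxisomal protease Lonp2 (0.981), the peroxisomal beta-oxidation enzyme Hsd17b4 (0.98), Ugdh (0.98) and Idh1 (0.979). For Acadl they were Pgrmc1 (0.972), Klf10 (0.969), Serpinb6a (0.968), Cast (0.965) and Tmem43 (0.965). All are descriptions over 18 points.

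The other enzymes of mitochondrial beta-oxidation, 13 of 19 listed genes being measured, were mostly lower in lactation, and fewer were called on the first day of involution. At birth 7 were lower and 2 higher (median -0.64). Decr1, which handles unsaturated chains, fell by 1.37, and Etfdh, which passes the electrons on, fell by 1.29. Against virgin week 12, lactation day 7 had 10 lower and 2 higher (median -1.04). Decr1 fell by 2.57 and Hadhb, a subunit of the trifunctional protein, by 1.97, while Acads, the short-chain dehydrogenase, rose by 0.97. At involution day 1, 4 were higher and 2 lower than at lactation day 7 (median 0.02 against -0.02 for all probe sets). Eci2, an enoyl-CoA isomerase, rose by 1.65 and Hadhb by 1.18, whereas Ivd, of leucine breakdown, fell by 1.68 and Eci1 by 0.49. From involution day 1 to day 4, 6 were higher and 1 lower (median 0.49), with Decr1 up by 1.97. Virgin week 12 against week 6 gave 3 higher and 3 lower members, pregnancy day 14.5 gave 1 and 3, and neither lactation day 7 against day 1 nor involution day 20 gave any.

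The carnitine shuttle and fatty acid supply list split in the same comparison. Of 10 measured genes, 2 rose and 4 fell from lactation day 7 to involution day 1 (median -0.30). The risers were the partners of Cpt1a in the shuttle: Slc25a20, the carnitine carrier of the inner membrane, rose by 1.02 ± 0.18 (SE), and Cpt2, which hands the chain back to CoA, by 0.62 ± 0.20. Fabp3, a fatty acid binding protein of the lactating gland, fell by 3.04 ± 0.41, and Lpl, which frees fatty acids from blood lipids, by 2.01 ± 0.20. Against virgin week 12, lactation day 7 had 3 higher, led by Fabp3 and Acsl4 (1.32), and 4 lower, led by Crat (-1.37) and Cpt2 (-1.31). At birth 0 rose and 2 fell, Slc25a20 (-0.81) and Cpt2 (-0.69).

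Parts of the pyruvate dehydrogenase complex, the target of PDK4, fell at weaning. Of 6 measured genes of the complex and its regulators, 0 rose and 2 fell at involution day 1. Pdhb, a subunit of the E1 component, fell by 1.67 ± 0.24 (SE) and Dlat, the E2 component, by 1.41 ± 0.25, with adjusted p of 8.3e-07 and 2.3e-05. Both had risen at birth, by 0.83 and 0.72. The kinase Pdk3 fell at birth by 1.44 and was 1.76 lower at lactation day 7 than at virgin week 12, where Pdhb was 0.74 higher. From involution day 1 to day 4, Pdk1 fell by 1.46 while Pdk3 rose by 1.17 and Dlat by 0.75.

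Genes known as PPAR targets, with peroxisomal and ketone body enzymes, had 4 higher and 2 lower of 11 measured at involution day 1 (median -0.20). Angptl4, a secreted inhibitor of lipoprotein lipase and a PPAR target, rose by 3.23 ± 0.35 (SE) or 9.38-fold, and Acot1, an acyl-CoA thioesterase, by 1.24 ± 0.29. Oxct1, which uses ketone bodies, fell by 0.94 and Ehhadh, a peroxisomal enzyme, by 1.01. At lactation day 7 against virgin week 12 this list had 5 higher and 4 lower, with Plin2, the coat of milk lipid droplets, up by 2.37. Among 10 measured glucocorticoid and FOXO targets and regulators, 2 rose and 2 fell at involution day 1 (median -0.68). Txnip, a brake on glucose uptake, rose by 1.82 ± 0.23 and Ccng2, a FOXO target, by 1.34 ± 0.32. Fkbp5, a glucocorticoid target, fell by 1.32 ± 0.34 and the receptor gene Nr3c1 by 1.73 ± 0.43. At lactation day 7 against virgin week 12 that list had 3 higher and 2 lower, with Fkbp5 up by 1.80 and Txnip down by 1.81.

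Fatty acid synthesis genes were higher in lactation and lower after weaning. Of 12 measured, 6 were higher and 1 lower at birth (median 0.89), and 6 higher and 0 lower at lactation day 7 against virgin week 12 (median 0.76). At involution day 1, 0 were higher and 10 lower than at lactation day 7 (median -2.29), among them the elongase Elovl5, which fell by 3.38, and the citrate carrier Slc25a1, which fell by 2.98. Glucose uptake and glycolysis had 5 higher and 4 lower of 14 at lactation day 7 against virgin week 12, and 0 higher and 6 lower at involution day 1. The glucose transporter Slc2a1 was 2.40 higher and then fell by 1.78. Of 18 measured genes of general mitochondrial content, 4 were higher and 7 lower at lactation day 7 (median -0.30), and 0 were higher and 5 lower at involution day 1 (median -0.26). Citrate synthase (Cs) fell by 0.98 on that day. The plot of list medians sets these lists beside the median of the 4 genes, whose own rises ran from 0.91 to 4.85, and the difference between lists was not tested.

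**Figure D4:**
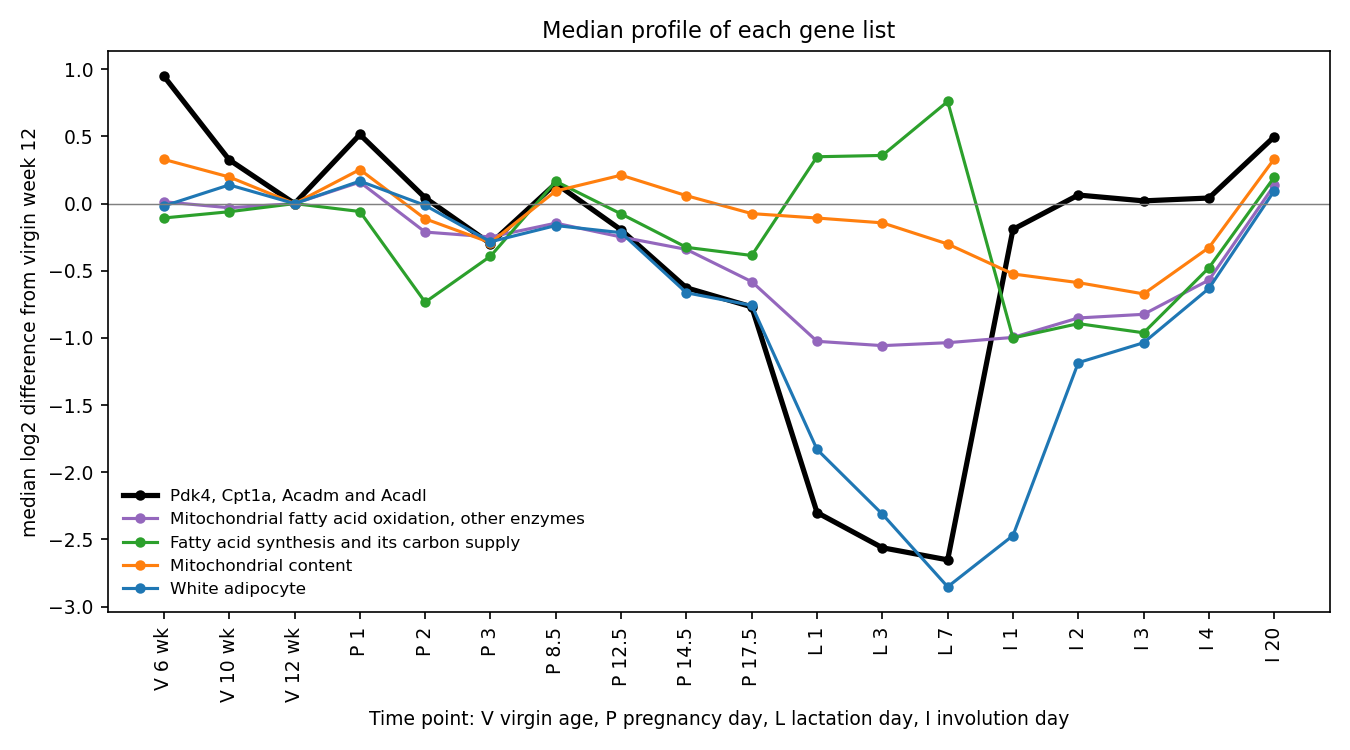
Median over the genes of each list of the difference in mean log2 signal from virgin week 12, at the 18 time points; black is the median of Pdk4, Cpt1a, Acadm and Acadl, and colours mark 4 gene lists. The other fatty acid oxidation enzymes lie at -1.04 at lactation day 7 and -1.0 at involution day 1, while the 4 genes go from -2.65 to -0.19.

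Markers of other cell types moved with some of these results. For white adipocytes 9 markers were measured, none of them under 9.4 on all mice of any time point. Of them 7 fell at birth (median -1.0), 4 fell from lactation day 1 to day 7, and 7 were lower at lactation day 7 than at virgin week 12 (median -2.85), with none higher. Their summed signal was 17107 to 17756 at virgin week 12 and 3962 to 6250 at lactation day 7, and their part in the low lactation values of the 4 genes was not tested. At involution day 1 the sum was 3909 to 4670, which overlapped with lactation day 7. Of the 9 markers, 0 were called in either direction (median -0.04). Pnpla2 made up the largest share of the sum at both points, with means of 2790 at lactation day 7 and 1740 at involution day 1. From involution day 1 to day 4, 7 of 9 rose and the sum reached 11590 to 13736. The part of adipocytes in the changes of the 4 genes at these steps was not tested either. Over the 18 means the log2 sum had r = 0.92 with Acadm, 0.82 with Acadl, 0.68 with Cpt1a and 0.17 with Pdk4. Between mice of the same time point, over 54 arrays, r was 0.41, 0.44, 0.32 and 0.01 in the same order.

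Of 6 macrophage markers, 5 were lower and 1 higher at lactation day 7 than at virgin week 12, and 2 rose at involution day 1 (Cd14 by 2.45 and Cd68 by 1.35). Their summed signal was 2456 to 2591, then 1577 to 1888, then 7594 to 8746, and on involution day 1 most of it was Cd14. From involution day 1 to day 4, 5 rose, with Lyz2 up by 3.17 and Csf1r by 2.88, and 1 fell. The sum of 9 secretory epithelium markers, milk proteins and keratins among them, was 2738 to 4729 at virgin week 12, then 50633 to 53068 at lactation day 7 (6 higher and 2 lower) and 26676 to 31264 at involution day 1 (3 higher and 0 lower). The part of macrophages and of secretory cells in the change of the 4 genes was not tested. The 5 endothelial markers had 4 lower and 1 higher at lactation day 7 and none called at involution day 1. The 3 basal epithelium markers had 2 higher and then 1 higher. The 5 brown adipocyte markers had 1 higher and 3 lower and then 0 higher and 2 lower.

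Skeletal muscle, which is known to carry Pdk4 and can be taken along with this gland, varied widely between mice of 1 time point. Its 9 markers summed to 188, 6194 and 1691 in mice A, B and C of virgin week 6. At involution day 1 the sum was 208 to 410, against 287 to 1123 at lactation day 7, and the median difference of the markers was -1.57. Only 1 of 9 was called, Mb, which was higher, against the list median, and lay under 9.4 on 20 of 54 arrays. Between mice of the same time point the log2 sum had r = -0.10 with Pdk4, -0.26 with Cpt1a, -0.34 with Acadm and -0.31 with Acadl over 54 arrays.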

How the data were processed

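The deposited values are 1-channel array intensity values, computed by the authors with MAS5 per the submitters' processing notes and given on a linear scale. The MAS5 version is one detail not given in the sources used here. Each array was scaled to a like level: the 2% trimmed mean ran from 100.05 to 100.07 and the median from 31.8 to 44.5. Precision is limited by 3 mice per time point, and the spread between mice holds biological and technical error together.

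Groups and mouse letters were taken from the sample labels. A floor of 9.4 (25th percentile) was applied before log2. Excluding 66 controls, the test used the 8640 probe sets above 22.8 (40th percentile) on every array of some time point. Probe sets were named from the platform annotation: of the non-control ones, 10833 had exactly 1 symbol, 396 several and 1193 none.

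All 54 arrays were fitted with limma 3.58.1 (R 4.3.3), a mean for each time point and a variance trend, which left 36 residual and 6.8 prior degrees of freedom. All tests were two-sided, with p adjusted by Benjamini-Hochberg over all 8640 probe sets. The pipeline was tested on simulated data. Tables were made with numpy 2.4.6 and pandas 2.3.3 in Python 3.11.15, and figures with matplotlib 3.10.9.

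Named genes were the 5 members, per list and comparison up to 2 called genes with the largest rise and 2 with the largest fall, and the 5 nearest profiles per member. A list gene stood by its brightest kept probe set. The members, lists and rules were chosen with earlier results of these data known. Same-letter arrays of different time points deviated together with r of -0.095 to 0.057 in 24 pairs of compared points, so the letters do not pair mice.

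Other settings were no floor (the 32 values of 0 set to 0.1), a floor at 22.8, quantile normalization, median scaling, no filter, 1 probe set per gene, only the compared arrays, array quality weights, no intensity trend, letters as a block, the beta-actin ratio as a covariate, and leaving out each array.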

Additional observations from a re-analysis of the deposited data

How the results depend on the processing

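Lactation day 7 against virgin week 12, involution day 1 against lactation day 7 and the F test kept all 4 calls in every setting run. Elsewhere the count of called members moved. Between virgin ages it went from 3 to 0 with the beta-actin covariate and to 2 with quantile normalization or no filter (Acadl lost). Leaving out any 1 of mice A, B and C of week 6 or A and B of week 12 also lost Acadl. The count went to 4 with only the compared arrays or array weights (Cpt1a gained). At pregnancy day 14.5 it went from 1 to 0 with median scaling and to 2 with only the compared arrays, array weights, the beta-actin covariate or the letter as a replicate block, and from 0 to 2 leaving out single mice. The block also called Pdk4 at birth (adjusted p = 0.039) and changed no other member's call. From lactation day 1 to day 7 the count went from 1 to 0 with only the compared arrays, and from 0 to 1 leaving out single mice. From involution day 1 to day 4 it went from 0 to 1 with quantile normalization, only the compared arrays or the beta-actin covariate, and to 2 with array weights. Signs turned only for differences that were not called. Cpt1a at pregnancy day 14.5 was -0.12 with the beta-actin covariate and from -0.01 to 0.16 leaving out single mice. Cpt1a from involution day 1 to day 4 was 0.05 with array weights and from -0.26 to 0.01 leaving out single mice. Cpt1a at involution day 20 was -0.07 with array weights, -0.08 with the beta-actin covariate and from -0.11 to 0.32 leaving out single mice. Pdk4 from lactation day 1 to day 7 was from -0.61 to 0.07 leaving out single mice. Causes were not tested. Median scaling moved the median of all probe sets by -0.20 between virgin ages, 0.18 at pregnancy day 14.5 and 0.14 at involution day 20, and quantile normalization by -0.12 between virgin ages. With median scaling the share of calls that were higher went from 57.9% to 34% between virgin ages, from 49.9% to 71.9% at pregnancy day 14.5 and from 48.2% to 65.7% at involution day 20. Counts over all probe sets moved most between virgin ages (2571 to 349 with the beta-actin covariate), at pregnancy day 14.5 (1527 to 3103 with array weights), at birth (2011 to 620 with only the compared arrays), within lactation (457 to 64 with only the compared arrays), from involution day 1 to day 4 (2087 to 3141 with array weights) and at involution day 20 (228 to 627 with array weights). Signals near the floor, as for Acadvl, limit what can be measured.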
